A study of Mus musculus with 23 samples.

Results

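Small structures of mouse bone marrow were picked apart cell by cell, so that the cells that had been attached to each other are known, and 46 of the 944 cells kept carried transcripts of complement C1q at a level chosen to mark macrophages. These C1q-positive cells and the 49 other cells of their clumps, here called partners, are described here, 95 cells in all, against 648 cells of clumps that held no C1q-positive cell, here called comparison clumps. The marrow had been flushed gently, larger structures were trimmed with needles into pieces of mostly a few cells, and these were separated into single cells and measured with CEL-seq, a method that counts transcripts from their 3' ends. The C1q-positive cells came from 16 of the 17 micro-dissected libraries of the table, the partners from 12 and the cells of comparison clumps from 16. Sorted stem cells, from libraries of their own, are used only for the background of C1q. The labels give mouse bone marrow as the source, and no genotype, strain, age or animal is given in the sources used here. Whether libraries came from separate animals is not stated, and the p-values below therefore speak of differences among libraries that may be partly technical.

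The members were chosen by a measured value. A cell with at least 500 transcripts was called C1q-positive when C1qa, C1qb and C1qc together made up at least 10 of every 10000 of its transcripts, and the clump was read from the number before the dot in the cell's name, which the labels do not define. Just inside this level were cells at 10.3 and 10.5 per 10000, and just outside it cells at 9.90 and 9.54. The 46 cells lay in 45 clumps of 16 libraries. In 31 of these clumps at least 1 more cell passed the minimum, in 14 none did, and 1 clump held 2 C1q-positive cells. No 2 of the 944 cells had identical profiles. C1q levels are therefore a description of how the cells were chosen, and every other gene in the C1q-positive cells is given below with no test.

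C1q is the recognition protein that starts the classical complement pathway, and in tissues it is made mainly by resident macrophages. In bone marrow such macrophages form the centre of erythroblastic islands, in which maturing red cell precursors hold on to them through adhesion molecules such as VCAM1, and in which the macrophages take up the nuclei that erythroblasts shed and recycle iron from red cells. Marrow macrophages are also known for clearing aged neutrophils.

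The 3 C1q genes are neighbours on mouse chromosome 4 and together span 18675 bases of mm10, with C1qb at chr4:136880129-136886187, C1qc at chr4:136889804-136893065 and C1qa at chr4:136895917-136898803, all on the minus strand (GENCODE vM21). They were detected together in the cells with most C1q, so the 250 bases before the start that RefSeq gives for C1qb and C1qc are shown, with those of Alas2, the gene that passed the test among erythroid partners below. The sequences are from RefSeq, build GRCm38.p6, read 5′ to 3′ on the gene's strand. The RefSeq starts differ from the GENCODE gene bounds given here, so the C1qc and Alas2 windows lie partly inside the GENCODE gene. Capitals mark GAGGAAGT on either strand in the C1q promoters, an element of the kind bound by the myeloid factor PU.1, and AGATAA on either strand in the Alas2 promoter, an element of the kind bound by GATA factors.
C1qb (chr4:136886201-136886450, minus strand): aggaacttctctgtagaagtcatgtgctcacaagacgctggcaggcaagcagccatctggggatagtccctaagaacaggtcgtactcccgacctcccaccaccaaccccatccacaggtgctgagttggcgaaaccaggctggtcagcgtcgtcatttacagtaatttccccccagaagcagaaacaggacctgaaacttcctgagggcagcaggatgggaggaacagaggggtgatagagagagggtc
C1qc (chr4:136892915-136893164, minus strand): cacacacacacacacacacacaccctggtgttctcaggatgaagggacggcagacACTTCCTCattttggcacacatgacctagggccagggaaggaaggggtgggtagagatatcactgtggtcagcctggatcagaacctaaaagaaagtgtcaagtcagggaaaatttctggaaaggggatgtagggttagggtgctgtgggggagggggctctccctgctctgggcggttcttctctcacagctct
Alas2 (chrX:150547167-150547416, plus strand): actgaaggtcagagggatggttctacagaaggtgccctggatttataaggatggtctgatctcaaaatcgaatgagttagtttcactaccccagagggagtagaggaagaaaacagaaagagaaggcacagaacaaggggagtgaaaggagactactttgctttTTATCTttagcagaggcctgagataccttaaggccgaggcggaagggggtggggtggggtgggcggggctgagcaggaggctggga
The C1qc window held 1 match to GAGGAAGT and the C1qb window 0, and among 32851 promoter windows of the same length 802 held it, or 2.44%. The Alas2 window held 1 match to AGATAA, which 3281 of the 32851 windows held, or 9.99%. A match is a description of the letters in this window.

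The marker check showed that the C1q-positive cells were not all of one kind. Cells with at least 50 C1q transcripts per 10000, here called C1q-high, numbered 20 and lay between 59.1 and 231 per 10000. The other 26 cells, here called C1q-low, lay between 10.3 and 45.6. This split was chosen after the values were seen. Of the C1q-high cells, 17 had transcripts of all 3 C1q genes and 3 had transcripts of 2 of them, and they held 5.03 to 146 C1q transcripts per cell. Of the C1q-low cells, 1 had all 3 genes, 10 had 2 and 15 had 1, and 11 of the 26 were called on a single C1q transcript and 5 on 2. The median depth was 2727 transcripts in C1q-high cells, 924 in C1q-low cells, 1559 in partners and 1751 in cells of comparison clumps. In a cell with fewer than 1000 transcripts, 1 C1q transcript is enough to reach 10 per 10000.

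**Figure D1:**
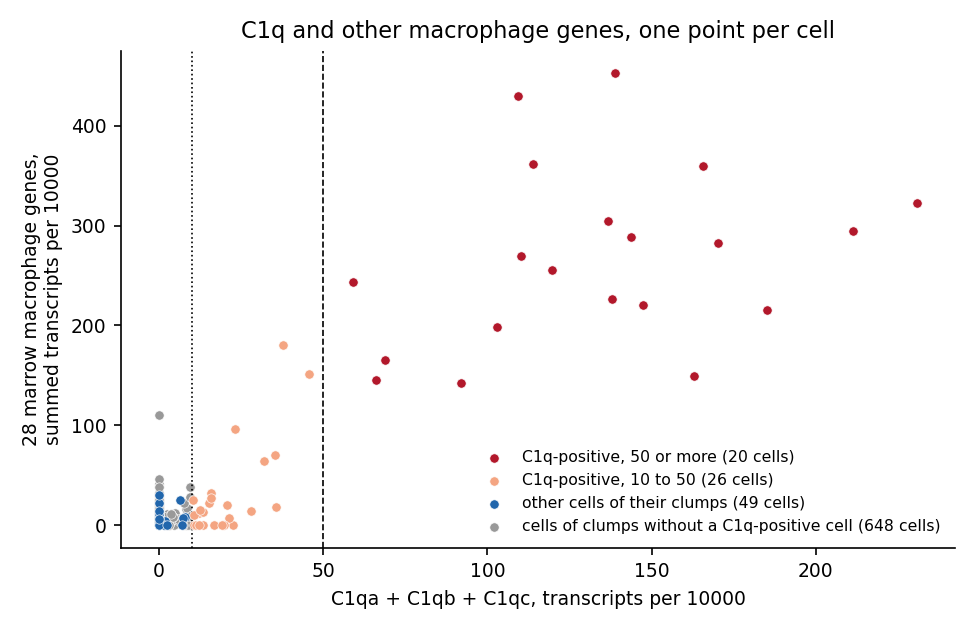
Summed transcripts per 10000 of C1qa, C1qb and C1qc (x axis) and of 28 other marrow macrophage genes (y axis), one point per cell, with the dotted line at 10 and the dashed line at 50 C1q transcripts per 10000. The 20 C1q-high cells lie between 142 and 452 on the y axis, above all but 2 of the C1q-low cells and above all partners and all cells of comparison clumps.

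A list of 28 other genes of marrow macrophages separated the C1q-high cells from the rest. Their summed level was 142 at the lowest, 263 at the median and 452 at the highest per 10000 transcripts in C1q-high cells, and 0, 13.6 and 180 in C1q-low cells. In partners it reached at most 30, and in cells of comparison clumps at most 110, with a median of 0. None of the 648 cells of comparison clumps and none of the 49 partners reached the lowest C1q-high cell. Of the 26 C1q-low cells, 2 did so, 9 had no transcript of the list and 11 had a level above 0 and below 30. In C1q-high cells the genes Folr2, Clec4f and Pltp of this list were at 0. The label macrophage therefore held by its markers for the C1q-high cells, and the C1q-low cells are called by their rule only. By 13 marker lists of other cell types, 13 of the 26 C1q-low cells scored highest for myelocyte and metamyelocyte genes, 9 for erythroblast genes, 2 for eosinophil genes 1 for B cell and plasma cell genes and 1 for none. These lists held no macrophage genes, and C1q-high cells reached the minimum of 100 per 10000 for the erythroblast list in 8 cells, for the myelocyte and metamyelocyte list in 3 and for none in 9.

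C1q transcripts in cells below the level give the background of the measurement. At least 1 C1q transcript was found in 7 of 49 partners (14.3%, exact 95% interval 5.94 to 27.2%) and in 49 of 648 cells of comparison clumps (7.56%, 5.65 to 9.87%). It was also found in 10 of 201 cells that were alone in their clump (4.98%) and in 6 of 287 sorted stem cells (2.09%), at median depths of 1465 and 1782 transcripts. The interval of the partners overlaps that of the comparison clumps, and both cover counting error only. Pooled over cells, C1q made up 139 per 10000 transcripts in C1q-high cells, 22 in C1q-low cells, 0.645 in partners and 0.308 in cells of comparison clumps. The word big, which the labels do not define, stands in the names of 7 of the 20 C1q-high cells, 3 of the 26 C1q-low cells, 0 of the 49 partners and 8 of the 648 cells of comparison clumps.

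Among 1026 genes detected in at least 25% of them and in at least 5 libraries, the 25 with the highest ratio to the comparison clumps, after the C1q genes, were Ms4a7, Slco2b1, Fcna, Nr1h3, Fcgr1, Cd5l, Pgap1, Gpd1, Axl, Fcgrt, Rnase4, Cd302, Mrc1, Sdc3, Abca1, Il18, Spic, Adap2, Clec4a1, Igf1, Cd68, Lgmn, Apoe, Fabp4 and Frmd4b. The values that follow are levels in transcripts per 10000, averaged within a library and then over libraries, 11 for C1q-high cells and 16 for comparison clumps, with the SD over libraries. Since C1q chose the cells, these are descriptions and no test was made. All 25 were higher in C1q-high than in C1q-low cells by these means.

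Apoe, the apolipoprotein that macrophages secrete, averaged 62.8 ± 31.8 in C1q-high cells, 14.8 ± 21.0 in C1q-low cells and 0.574 ± 0.467 in comparison clumps, and it was found in 20 of 20 C1q-high cells at 26.4 to 257 per 10000. Axl, a receptor kinase for the uptake of apoptotic cells, averaged 36.6 ± 17.9, 1.93 ± 4.64 and 0.141 ± 0.159 in the same order. Both were higher in C1q-high cells than in comparison clumps in 11 of 11 libraries.

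Cd5l, a secreted scavenger-receptor protein of tissue macrophages, averaged 37.0 ± 25.2 in C1q-high cells, 0.729 ± 1.58 in C1q-low cells and 0.107 ± 0.200 in comparison clumps. Fcna, a ficolin that recognises sugars and feeds the lectin pathway of complement, averaged 37.6 ± 16.6, 1.33 ± 2.92 and 0.0866 ± 0.159 in the same order, and was found in 19 of 20 C1q-high cells against 12 of 648 cells of comparison clumps. Mrc1, the mannose receptor, averaged 19.1 ± 10.2, 3.38 ± 6.08 and 0.101 ± 0.178. Cd5l ranged from 0 to 196 per 10000 among the C1q-high cells and was at 0 in 3 of them, so the macrophage-like cells were not alike in it.

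Rarer genes of the same profile were found in part of the cells. Ms4a7, a membrane protein of macrophages, was found in 12 of 20 C1q-high cells, 4 of 26 C1q-low cells and 1 of 648 cells of comparison clumps, too few transcripts in the last for a fold change. Slco2b1, an organic anion transporter, was found in 16, 3 and 3 cells of the same groups. Nr1h3, which encodes the oxysterol receptor LXR alpha, was found in 8, 4 and 1, and Abca1, a cholesterol exporter that LXR induces, in 15, 3 and 9. Spic, the transcription factor of iron-recycling macrophages, was found in 16, 2 and 6 and averaged 7.95 ± 5.31 per 10000 in C1q-high cells. Timd4, a phosphatidylserine receptor, was found in 5, 0 and 2, Mertk in 5, 2 and 0, and Siglec1, known as CD169, in 4, 0 and 0. For Siglec1 and Mertk, 0 of 648 cells allows a share of up to 0.463% of cells with a transcript.

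**Figure D2:**
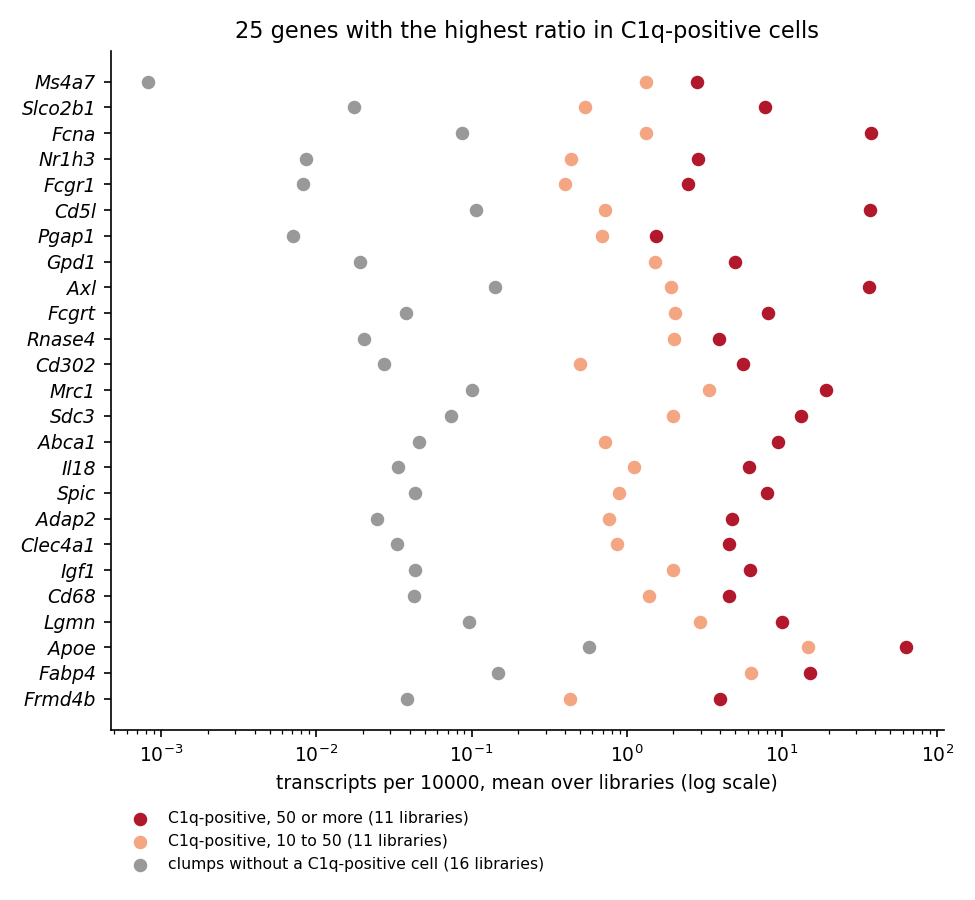
Level of the 25 leading genes in transcripts per 10000, as the mean over libraries on a log scale, in C1q-high cells, C1q-low cells and cells of comparison clumps. For each gene the C1q-high cells lie highest and the comparison clumps lowest, with Apoe at 62.8 and 0.574 per 10000.

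Iron and haem handling genes were abundant in the C1q-high cells. Hmox1, the enzyme that breaks haem open and frees its iron, averaged 88.6 ± 59.1 per 10000 in C1q-high cells, 14.7 ± 22.6 in C1q-low cells and 1.0 ± 1.40 in comparison clumps. It ranged from 7.33 to 290 among the 20 C1q-high cells, all of which had it. Slc40a1, which encodes ferroportin, the iron exporter, averaged 29.4 ± 16.6, 5.78 ± 9.97 and 0.819 ± 0.645 in the same order. Hmox1 and Slc40a1 were each higher in C1q-high cells than in comparison clumps in 11 of 11 libraries.

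The iron store gene Ftl1, the ferritin light chain, averaged 214 ± 94.7 in C1q-high cells, 72.0 ± 74.6 in C1q-low cells and 23.7 ± 8.49 in comparison clumps, and Fth1, the heavy chain, averaged 72.4 ± 35.7, 48.6 ± 67.5 and 20.3 ± 10.6. Trf, transferrin, averaged 18.5 ± 8.29, 3.58 ± 4.81 and 0.232 ± 0.258. Slc11a1, a phagosomal metal transporter, averaged 4.42 ± 4.57, 0.795 ± 2.04 and 0.250 ± 0.348, and Slc48a1, a haem transporter, 9.04 ± 7.74, 5.89 ± 7.15 and 1.94 ± 1.19. Blvra, a biliverdin reductase, averaged 5.40 ± 3.8, 0.329 ± 0.861 and 0.527 ± 0.638. Tfrc, the transferrin receptor through which erythroblasts take in iron, averaged 1.83 ± 3.05 in C1q-high cells, 5.74 ± 7.05 in C1q-low cells and 3.57 ± 2.46 in comparison clumps. Of the 14 genes of this list that were detected, 10 had a ratio of C1q-high cells to comparison clumps above 1 and 5 had one of at least 10. Over all 14265 genes detected in either, 4290 had a ratio above 1 and 6.10% one of at least 10. The median ratio over all was 0.138. It was 4.66 for the iron and haem list, 106 for the marrow macrophage list and 9.30 for the phagocytosis and lysosome list. A gene seen only in comparison clumps has a ratio of 0. C1q-high cells held 64737 transcripts in all, against 1.95e+06 in comparison clumps, so the median over all genes also depends on depth.

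Lysosomal genes were also abundant. Ctsb, a cathepsin, averaged 103 ± 40.4 per 10000 in C1q-high cells, 35.1 ± 45.8 in C1q-low cells and 6.58 ± 3.53 in comparison clumps. Psap, the precursor of the saposins, averaged 70.4 ± 19.3, 41.6 ± 77.7 and 4.13 ± 2.09, and Ctsd averaged 42.5 ± 20.8, 16.3 ± 37.9 and 2.30 ± 1.62. Of the 26 detected genes of the phagocytosis and lysosome list, 24 had a ratio of C1q-high cells to comparison clumps above 1 and 12 one of at least 10. Among complement and opsonin receptor genes, 10 of 17 had a ratio above 1. Over all 14265 detected genes, 4290 did. Cfp, which encodes properdin, was at 13.6 ± 8.60 in C1q-high cells, 0.487 ± 1.20 in C1q-low cells and 0.388 ± 0.283 in comparison clumps.

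Of the 13 adhesion genes named for erythroblastic islands, 3 had a ratio of C1q-high cells to comparison clumps of at least 10. That is 23.1%, against 6.10% of all detected genes. The list mixes genes of the macrophage with genes of the erythroblast, such as its integrin genes Itga4 and Itgb1. Vcam1, the macrophage ligand of the erythroblast integrin made of Itga4 and Itgb1, averaged 51.4 ± 16.6 per 10000 in C1q-high cells, 5.04 ± 7.38 in C1q-low cells and 1.02 ± 0.924 in comparison clumps, and was found in 20 of 20 C1q-high cells, 8 of 26 C1q-low cells and 107 of 648 cells of comparison clumps. Sirpa, which receives the signal of Cd47 on neighbouring cells, averaged 14.6 ± 10.7, 5.36 ± 9.59 and 1.27 ± 0.668. Itgav averaged 2.49 ± 4.74, 0.405 ± 1.18 and 0.152 ± 0.203 and was found in 5 C1q-high cells. Maea, a protein named for erythroblast and macrophage contact, averaged 0.729 ± 1.54, 2.97 ± 5.64 and 1.13 ± 0.665. Icam4 and Palld had no transcript in the C1q-high cells. The median ratio over the 13 genes of the list was 0.655, against 0.138 over all detected genes, a value that also depends on depth. Above 1 were 5 of the 13 genes, and 4290 of all 14265. With a median below 1, the list as a whole was not higher in C1q-high cells. Cd47 was at 4.89 ± 7.41 in C1q-high cells, 3.17 ± 4.38 in C1q-low cells and 5.07 ± 1.5 in comparison clumps.

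As a description over the 20 C1q-high cells, which share libraries and differ in depth, Spearman's rho was 0.53 for Hmox1 with Spic, 0.49 for Cd5l with Spic, 0.41 for Cd5l with Apoe, 0.40 for Apoe with Spic, 0.20 for Hmox1 with Slc40a1 and -0.47 for Hmox1 with Vcam1. These were 6 of 36 pairs computed among 9 genes, chosen after the values were seen. Transcripts of the Hba and Hbb genes of the erythroblast list, here called listed globins, were found in 12 of the 20 cells. Their median was 11.4 and their highest level 246 per 10000. The median was 110 in erythroid cells of comparison clumps and 0 in their neutrophil-line cells, of which 104 of 321 had any. The sum leaves out the globin entry Beta-s, so it is only a part of globin. Beta-s averaged 1122 per 10000 over 7 libraries in erythroid cells of comparison clumps and 47.4 over 5 libraries in their neutrophil-line cells. The 11 C1q-high cells with an erythroid partner had a median of 2.01 listed globin transcripts per 10000. The 6 with no partner at the minimum had 7.34, and the 3 whose partners were all of other classes had 96.5, 207 and 246.

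What the C1q-positive cells were attached to was read from the classes of their partners. Each cell was given the class of the marker list with the highest summed level, if that reached 100 per 10000, and promyelocytes, myelocytes and mature neutrophils were joined as the neutrophil line. Of the 20 C1q-high cells, 14 had partners that passed the minimum, 25 cells in all. By class, 17 of these 25 were erythroid (68%), 7 were of the neutrophil line and 1 scored highest for the list of monocyte and dendritic genes. Of that list, F13a1, Klf4 and Csf1r were at 0 in all 25 partners, so this cell is named by its list only. In 11 of the 14 clumps at least 1 partner was erythroid, and in 8 all were. One C1q-high cell of micro-dissected replicate 12 had 4 erythroid partners, and one of replicate 17 had 3 erythroid and 2 neutrophil-line partners. The 24 partners of C1q-low cells held 9 erythroid cells (37.5%), 14 of the neutrophil line and 1 of no class. In the comparison clumps 238 of 648 cells were erythroid (36.7%), 321 of the neutrophil line (49.5%) and 31 eosinophils (4.78%). In the table, 13 of the 58 cells of the clumps with a C1q-high cell were below 500 transcripts, so partners are missing from this count.

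**Figure D3:**
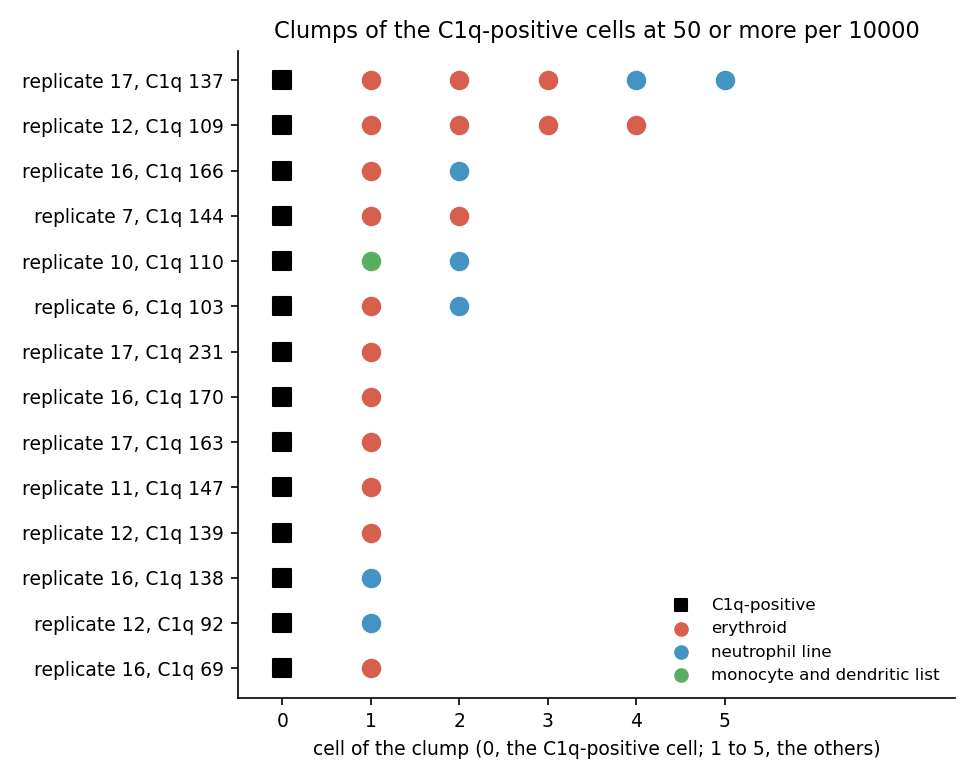
The 14 clumps with a C1q-high cell (black square, with its library and its C1q level per 10000) and the classes of the other cells that passed the minimum (circles), one row per clump. Erythroid partners are seen in 11 of the 14 clumps, up to 4 in one clump.

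Taken over libraries, the shares of erythroid and neutrophil-line cells did not differ beyond the spread. The 10 libraries with at least 2 partners and 2 cells of comparison clumps were compared, with an exact two-sided permutation test that flips the sign of each library's difference and adjustment over the 4 classes. The erythroid share was 51.4% ± 33.0 among partners and 43.2% ± 25.7 in comparison clumps (SD, n = 10 libraries), a difference of 8.23 ± 38.0 percentage points, positive in 6 of 10 libraries (exact adjusted p = 0.918). The neutrophil-line share was 42.2% ± 27.4 among partners and 43.2% ± 21.0 in comparison clumps, a difference of -1.07 ± 33.3 points (exact adjusted p = 0.918). With the partners of C1q-high cells alone, C1q-low cells of clumps of 2 or more, and their partners, counted as comparison cells. The erythroid share was then 60.8% ± 34.6 against 50.1% ± 27.9 in this wider set of the same 6 libraries (exact adjusted p = 0.917). Both differences were smaller than their spread between libraries, and the libraries gave 2 to 11 partners each.

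The eosinophil share passed the test, but partners were too few to read it as a lower share. None of the 49 partners was an eosinophil, against 4.75% ± 3.40 of cells in comparison clumps (SD, n = 10 libraries), where 9 of 10 libraries had some (exact adjusted p = 0.0156). With 0 among the partners of each library no difference could be positive, so this p does not measure how low the share was. A count of 0 among 49 partners allows a share of up to 6.12%, which is above the 4.78% of the comparison clumps pooled. Of the C1q-positive cells themselves 2 were classed as eosinophils, both C1q-low, so the clumps with a C1q-positive cell held 2 eosinophils among 95 cells. With at least 3 cells per library and arm, with cells of at least 1000 transcripts and with C1q-high cells alone, 6 libraries remained and the differences were -3.73, -5.94 and -5.42 points. The smallest p that 6 libraries allow is 0.0312 before adjustment, so whether they passed says little. The remaining classes together made up 6.43% ± 16 of partners and 8.83% ± 5.49 of cells in comparison clumps (exact adjusted p = 0.918). Replicate 10 had 50% of its partners in them, and without it the difference was -6.72 points (exact adjusted p = 0.0156), under the same limit of few partners.

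**Figure D4:**
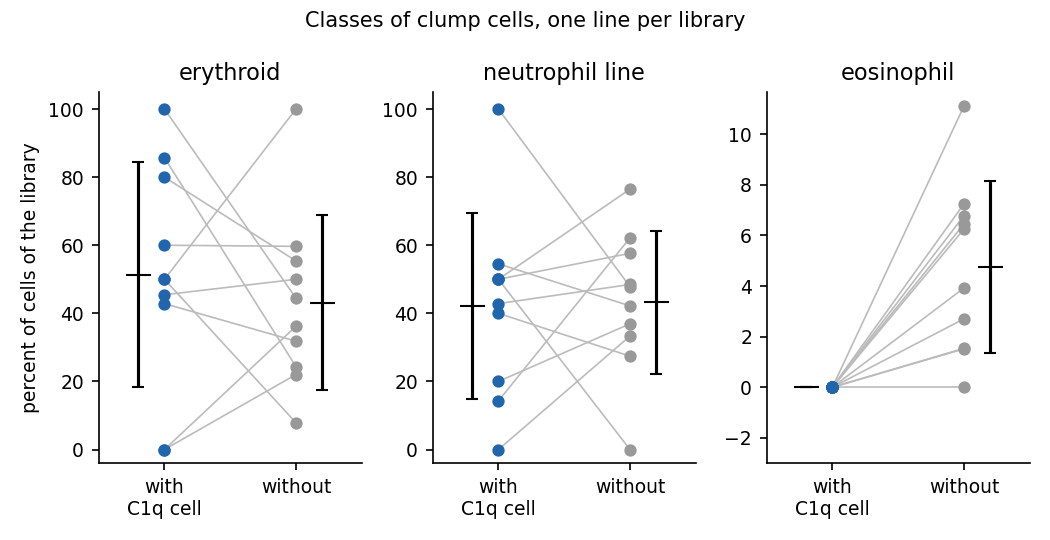
Percent of erythroid, neutrophil-line and eosinophil cells among partners of C1q-positive cells (left) and cells of comparison clumps (right), one line per library, with the mean and SD over 10 libraries. Erythroid and neutrophil-line shares cross in both directions, and the eosinophil share is 0 among the partners of each library and up to 11.1% in comparison clumps.

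Depth was compared in the same way. Partners had a mean log2 transcript number per cell of 10.65 ± 0.91 and cells of comparison clumps 10.90 ± 0.41 (SD, n = 10 libraries), a difference of -0.25 ± 0.70 that did not pass the exact permutation test (p = 0.287). With C1q-high cells alone, partners had fewer transcripts, by -0.53 on the log2 scale in 6 libraries (exact permutation p = 0.0312, the smallest that 6 libraries allow).

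To ask which genes differed in partners, transcripts were summed per library over the partners and over the cells of comparison clumps, and tested with edgeR's quasi-likelihood test with the library as a block and Benjamini-Hochberg adjustment over all genes tested. In 10 libraries, with 47 partners and 486 other cells, 1 of 235 genes passed, and it was lower in partners, which is 0.426% of the genes tested, while 0% were called higher. That gene was Prg2 (chr2:84980461-84983632), which encodes the major basic protein of eosinophil granules. Its level was 0 at the lowest, 3.71 at the median and 19.1 at the highest per 10000 transcripts in partners, and 2.07, 34.3 and 145 in comparison clumps. It was lower in partners in 10 of 10 libraries, although the ranges overlap, and its fitted log2 difference was -3.16 ± 0.45 (SE; edgeR adjusted p = 9.1e-05). Without the library block 0 genes passed and Prg2 had an adjusted p of 0.138 in edgeR's test. With eosinophil cells left out of both kinds of clump, an alternative chosen after seeing the data, Prg2 was too low to be tested and 0 of 232 genes passed. Prg2 is also on the list that names eosinophils, of which there were 0 among 49 partners and 31 among 648 cells of comparison clumps. A count of 0 among 49 allows up to 6.12%, above the 4.78% of the comparison clumps pooled, and the call on Prg2 has the same limit of few partners.

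Ear2, a ribonuclease of eosinophil granules, was next, at 2.46 ± 3.03 per 10000 in partners and 9.66 ± 8.79 in comparison clumps (log2 difference -2.13 ± 0.57, edgeR adjusted p = 0.132). With smaller p than the other genes, but past no threshold, followed Eif5a, Ybx1 and Mpo on the lower side and Alas2, Hbb-b1, Slc25a37, Hba-a1 and Slc4a1, all red cell genes, on the higher side, with edgeR adjusted p = 0.512 each. All 10 tested genes of the erythroblast list had a positive log2 difference, with a median of 0.98 against -0.09 for all 235 genes, and none of them passed. The 9 tested genes of the myelocyte and metamyelocyte list were also all positive, with a median of 0.38, and none passed. Of 73 ribosomal protein genes, 68 had a negative difference, median -0.24, and none passed.

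Transcripts of macrophage genes were few in partners and in comparison clumps. None of the marrow macrophage list passed the filter on low counts. Vcam1 was found in 2 of 49 partners against 107 of 648 cells of comparison clumps, Mrc1 in 0 against 12, Apoe in 5 against 77 and Hmox1 in 5 against 91. These counts are pooled over cells and libraries and were not tested, so no direction is read from them. The count of Vcam1 in partners rests on 2 cells. For Mrc1, 0 of 49 allows a share of up to 6.12%, above that of the comparison clumps. Among partners of C1q-high cells, 22 of the 28 genes of the list were at 0. The iron genes with enough transcripts were Fth1, at 26.9 ± 14.3 per 10000 in partners and 21.3 ± 9.39 in comparison clumps (log2 difference 0.46 ± 0.32, edgeR adjusted p = 0.686), Ftl1, at 26.5 ± 10.8 and 23.3 ± 6.51 (0.17 ± 0.29, adjusted p = 0.881), and Blvrb, at 6.65 ± 6.32 and 4.54 ± 2.99 (0.77 ± 0.41, adjusted p = 0.682). The adhesion gene Cd47, at 7.12 ± 5.83 in partners and 5.04 ± 1.19 in comparison clumps, did not pass either (0.44 ± 0.30, adjusted p = 0.686).

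Alas2 was higher in erythroid partners in the main test, a call that held in 8 of 17 alternatives. In 7 libraries with at least 2 erythroid cells of each kind, 25 erythroid partners were compared with 143 erythroid cells of comparison clumps, and 1 of 235 genes passed, higher in partners, or 0.426% of those tested, with 0% called lower. Alas2 (chrX:150547375-150570638) encodes the first enzyme of haem synthesis in erythroid cells. It stood at 12.8 per 10000 transcripts at the lowest, 32.2 at the median and 46.5 at the highest in erythroid partners, and at 2.61, 8.71 and 29.6 in erythroid cells of comparison clumps. It was higher in partners in 7 of 7 libraries, with overlapping ranges, and its log2 difference was 1.37 ± 0.29 (SE; edgeR adjusted p = 0.000846). Alas2 was itself on the list that chose the erythroid cells, and with Alas2 taken off that list the same numbers of cells were chosen and it still passed. Erythroid partners and erythroid cells of comparison clumps were not matched for stage of maturation.

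The call on Alas2 held in 8 of 17 alternatives. It was lost without replicate 9 (edgeR adjusted p = 0.0511) and without replicate 11 (0.0535), and without the library block, where the log2 difference was 1.11 and the adjusted p 0.906. It was also lost with partners of C1q-high cells alone, in 4 libraries, where the log2 difference was 1.04 and the adjusted p 0.998. The 153 Alas2 transcripts of erythroid partners came from 5 to 60 transcripts per library. In replicate 16 the levels were 31.9 in erythroid partners and 29.6 in erythroid cells of comparison clumps, the smallest gap of the 7 libraries.

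**Figure D5:**
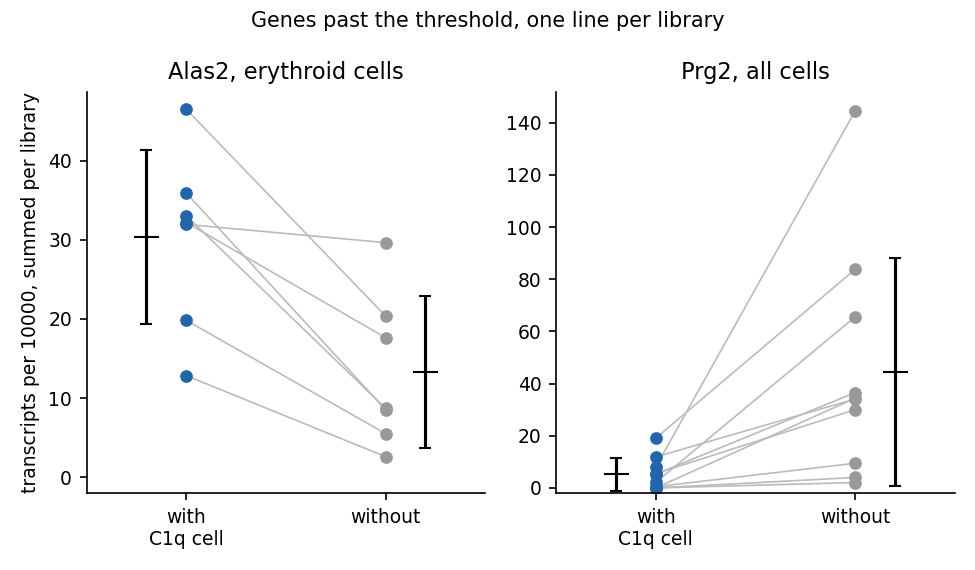
Transcripts per 10000 of Alas2 in erythroid cells (7 libraries) and of Prg2 in all cells (10 libraries), summed over partners of C1q-positive cells (left) and over cells of comparison clumps (right), one line per library, with mean and SD. Alas2 is higher in partners in 7 of 7 libraries and Prg2 lower in 10 of 10.

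No other red cell gene passed among erythroid partners. Hbb-b1, a beta globin, was at 64.2 ± 42.2 per 10000 in erythroid partners and 43.5 ± 50.4 in erythroid cells of comparison clumps (log2 difference 1.12 ± 0.35, edgeR adjusted p = 0.165). Without replicate 16 it passed, with a log2 difference of 1.46 and an adjusted p of 0.0156 in edgeR's test. Hbb-b2, Rsad2, an antiviral gene, and Slc4a1, the band 3 anion exchanger, had log2 differences of 1.05, 1.04 and 0.86 (edgeR adjusted p = 0.334 each). The globins share near-identical sequences, so the division of transcripts among them is uncertain.

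On the lower side were Eif5a, a translation factor, at 2.93 ± 4.35 in erythroid partners and 8.62 ± 4.13 in erythroid cells of comparison clumps (log2 difference -1.35 ± 0.46, edgeR adjusted p = 0.279), and Rpl7a, Ppia, Rpl10 and Rpl14 (edgeR adjusted p = 0.334 each). Of 18 tested erythroblast genes, 16 had a positive log2 difference, with a median of 0.53 against -0.08 for all 235 genes, but these genes chose the cells, so this is a description. Of 73 ribosomal protein genes, 69 had a negative difference with a median of -0.34, and none passed. The stress genes Hsp90aa1 and Hspa8, the tested members of the dissociation and stress list, were at 6.59 ± 3.0 and 6.22 ± 4.33 in erythroid partners and at 12.8 ± 8.78 and 11.4 ± 9.27 in erythroid cells of comparison clumps, and neither passed (edgeR adjusted p = 0.443 and 0.494). Their part in the results was not tested. Of 13 cell cycle genes, 9 had a positive and 4 a negative difference, with a median of 0.22, and none passed. Among the adhesion partners of Vcam1 and Sirpa, Cd47 was at 10.1 ± 5.81 in erythroid partners and 7.62 ± 3.94 in erythroid cells of comparison clumps (log2 difference 0.53 ± 0.39, edgeR adjusted p = 0.571).

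Neutrophil-line partners gave no gene past the threshold. In 5 libraries with at least 2 such cells of each kind, 15 neutrophil-line partners were compared with 148 neutrophil-line cells of comparison clumps, and 0 of 604 genes passed edgeR's test, or 0% in each direction, with 14 genes at an unadjusted p under 0.05, while DESeq2 also called 0 and had 8 such genes. The lowest p were on the lower side those of Elane, Mpo, Csf3r, Slc25a3 and Plac8, and on the higher side those of Ifitm6, Cdca3, Ogfrl1, Gpr97 and Ltf. Elane, the neutrophil elastase of primary granules, was at 12.5 ± 17.3 per 10000 in partners and 37.5 ± 30.7 in comparison clumps (log2 difference -1.77 ± 0.60, edgeR adjusted p = 0.995). Mpo, the myeloperoxidase of the same granules, was at 18.3 ± 30.5 and 36.2 ± 41.9 (-1.40 ± 0.60, edgeR adjusted p = 0.995). Ltf, lactoferrin of the secondary granules, ranged from 38.5 to 211 in partners and from 18.2 to 87.5 in comparison clumps.

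By list, 7 of 7 tested promyelocyte genes had a negative difference, with a median of -1.01, and 11 of 14 myelocyte and metamyelocyte genes a positive one, with a median of 0.15, against -0.17 for all 604 genes. These lists chose the cells and none of their genes passed. Of other lists, 5 complement and opsonin receptor genes had a median of -0.02 and 8 phagocytosis and lysosome genes one of -0.07, and none of these passed. Prg2, the gene called in the comparison of all cells, was at 5.46 ± 4.12 in neutrophil-line partners and 3.82 ± 3.17 in neutrophil-line cells of comparison clumps (log2 difference 0.66 ± 0.49, edgeR adjusted p = 0.995). With partners of C1q-high cells alone, 2 libraries and 4 partners remained, and 44 genes passed, 4 higher and 40 lower, a count that rests on those 2 libraries. In that fit C1q-low cells of clumps of 2 or more, and their partners, were among the comparison cells.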

How the data were processed

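The submitters' processing notes name BWA 0.6.2-r126 and the build mm10. The authors deposited 1 table of estimated counts (expected counts) of transcripts per gene and cell. How tags became counts is not given in the sources used here. Each cell column was matched to its library by name. Micro-dissected replicate 18 was not analysed here. Replicates are numbered in accession order.

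Cells with at least 500 transcripts were kept, 13 to 86 per library, with 16682 to 319701 transcripts per library. Intervals are exact binomial at 95%, a count of 0 allows 3 counts over the group, and both cover counting error only. No doublet caller was run. Sums were rounded to whole numbers and tested with edgeR 4.0.16 (TMM, filterByExpr) in R 4.3.3, in libraries with at least 2 cells of each kind. Its SE is approximate, computed as the absolute log2 difference divided by the root of the F statistic. DESeq2 1.42.0 was an alternative. The fits were also run on simulated counts. Those had no library effect and the same spread for each gene, so they do not show how the blocked fits behave on these sums.

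The library was a block because both kinds of cell come from the same library. Deviations of its 2 sums from the group means correlated at a median of 0.36 over 10 libraries, above 0.1 in 6 of them. Among erythroid cells the median was 0.29 over 7 libraries, above 0.1 in 5, and in the neutrophil line 0.31 over 5, above 0.1 in 3. Partner sums lay closest to their own library in 5 of 10, 2 of 7 and 1 of 5 libraries in the same order. Random placing would give about 1 library in each, so the erythroid and neutrophil-line counts say little about the block.

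Named genes were at most 12 past the threshold per direction, or, where fewer than 5 passed, the 5 with the smallest p, the 3 most abundant members of each list, and for C1q-positive cells the 25 highest ratios, all without predicted genes. Other list members named were chosen after their values were seen. The members, lists and rules were chosen with earlier results of these data known. The promoter table held C1qb, C1qc and Alas2 by symbol.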

Additional observations from a re-analysis of the deposited data

Results flagged for a closer look

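Among 24 groups of libraries checked for a value that stood apart, 1 did, and chance flags about 1 in 20. In micro-dissected replicate 10, 50% of the partners were of a class other than erythroid, neutrophil-line or eosinophil, against 0% in 8 of the other 9 libraries. That library had 2 partners, and the value is 1 cell that scored highest for the list of monocyte and dendritic genes.

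C1q transcripts were also found outside the compared cells. The 287 sorted stem cells held 6.01 C1q transcripts in all, and the 201 micro-dissected cells that were alone in their clump held 17.1. Pooled over cells, C1q made up 0.105 and 0.370 per 10000 transcripts in these 2 groups, against 0.308 in cells of comparison clumps. No sorted stem cell and no cell alone in its clump among these reached 10 per 10000.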

How the results depend on the processing

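With C1q at 50 per 10000 or at least 3 C1q transcripts, some C1q-positive cells no longer met the rule. Those in clumps of 2 or more, with their partners, then counted as comparison cells. In the test of all partners, 1 gene passed. This count was 0 without the replicate block and without eosinophil cells, 2 without TMM factors and with at least 1 cell per library and arm, 9 with at least 3 cells, 5 with at least 1000 transcripts per cell and 876 of 13403 with no filter on low counts, 875 of them lower. Leaving out a library gave 1 to 5 genes, with 5 without replicate 6 and 2 without replicate 7. Among erythroid partners, 1 gene passed, and 0 did without the replicate block, without TMM factors, with at least 3 cells, with at least 1000 transcripts, with C1q at 50 per 10000 and with at least 3 C1q transcripts. Leaving out a library gave 0 to 2 genes, with 0 without replicates 9 and 11 and 2 without replicate 16. Among neutrophil-line partners, 44 genes passed with C1q at 50 and 0 in the other alternatives, leave-one-out fits included. Omitting TMM moved the median log2 difference of all genes to -0.31 in the comparison of all cells and to -0.25 among erythroid cells. The fit without the block lost Prg2 and Alas2 and changed no other call. With no filter, the 1 gene that passed among erythroid cells was lower and was not Alas2.

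Prg2 stayed negative in the 19 alternatives in which it was tested and passed in 18, with edgeR or DESeq2 adjusted p from 1.54e-12 to 0.138. Alas2 stayed positive among erythroid cells in 17 and passed in 8, with adjusted p from 6.88e-06 to 0.998. With no filter the log2 difference reversed for Slc25a37 (-0.11), Hba-a1 (-0.23) and Slc4a1 (-0.24) among all cells and for Ogfrl1 (-0.092), Gpr97 (-0.043) and Ltf (-0.33) in the neutrophil line. Slc4a1 reversed in erythroid cells with C1q at 50 (-0.10), and Gpr97 in the neutrophil line with at least 1000 transcripts (-0.012).

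The difference in neutrophil-line share reversed to 7.06 points with at least 1 cell, and leaving out a library gave -6.99 to 4.13. The eosinophil difference passed in the main test, under the limit of few partners given above. It was -3.73 points with at least 3 cells, -5.94 with at least 1000 transcripts, -5.42 with C1q at 50 and -4.95 with at least 3 C1q transcripts, none of which passed. The first 3 of these kept 6 libraries, where an exact p cannot go below 0.0312 before adjustment. The difference in all other classes was 1.20 points with C1q at 50, and -6.72 to -1.36 leaving out a library, with -6.72 without replicate 10. The depth difference was 0.0301 on the log2 scale with at least 1 cell and -0.53 with C1q at 50. The marrow macrophage list averaged 136 per 10000 in C1q-positive cells and 251 with C1q at 50. Where no cause is stated, the cause was not tested.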
